A study of Mus musculus with 60 samples.

Results

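GFP-intermediate and GFP-negative epithelial cells of the mouse small intestine were compared by polyA RNA-seq. The mice were 8 weeks old and carried an Lgr5-2A-eGFP allele, in which a 2A peptide sequence lets eGFP be made from the transcript of the stem cell receptor gene Lgr5, so all groups share the allele and differ by the GFP gate. The small intestine was cut into equal proximal, middle and distal parts, crypts were loosened by chelation, single cells were made with TrypLE, and at least 50000 cells were sorted for each fraction. The comparison takes the 12 GFP-intermediate libraries, 4 from each part, against the 12 GFP-negative libraries of the same parts, 24 of the 60 libraries of the series, and averages over the 3 parts. The 12 GFP-high libraries of the same parts and the 16 GFP-intermediate and GFP-negative libraries of the colon are set beside them where they help to place a value. The labels do not say how the gates were set, which strain was used, or whether each library came from a separate mouse. The p-values therefore measure the spread between these libraries, part of which may be technical.

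The lining of the small intestine renews from Lgr5-expressing columnar cells at the crypt base, which lie between Paneth cells and are kept by Wnt and Notch signals. Their daughters divide as transit-amplifying cells, stop dividing as they leave the crypt, and become absorptive enterocytes or secretory goblet, enteroendocrine, Paneth or tuft cells. Most of these cells ride up the villus, where BMP signals are high, while Paneth cells stay at the base.

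The 24 libraries held between 55411864 and 95809663 counts each (median 83911331), with 18960 to 23453 genes detected. Lgr5, which the sort itself used and which therefore only checks the labels, was at 55.7 to 188 CPM (counts scaled to library size by TMM) in the GFP-intermediate libraries (median 107), against 1.65 to 4.33 CPM in the GFP-negative libraries (median 2.72). The GFP-high libraries held 280 to 598 CPM, so no library of one fraction reached another fraction's range. Epithelial markers were present in both fractions: Epcam, a surface adhesion protein of epithelia, was at 1584 to 2425 CPM in GFP-intermediate libraries and 1746 to 3053 CPM in GFP-negative libraries, and E-cadherin (Cdh1) was at 1113 to 1356 CPM in GFP-intermediate against 998 to 1384 CPM in GFP-negative cells. A difference below is a log2 ratio, GFP-intermediate over GFP-negative, with its standard error (SE), and genes with an adjusted p below 0.05 in edgeR's quasi-likelihood test, adjusted over all genes, are the ones called. On this scale Epcam was called lower (-0.36 ± 0.06) and Cdh1 was not called (-0.02 ± 0.05), though with DESeq2's size factors Cdh1 differed by -0.15 and was called. In bulk RNA, fewer cells of a type and less RNA per cell cannot be told apart.

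GFP-intermediate cells held higher levels of crypt base, cell cycle, ribosome-making, Paneth and tuft genes, and lower levels of enterocyte, goblet, hormone and leukocyte genes. Of 23360 genes tested, 6852 were called higher in GFP-intermediate cells (29.3%) and 7134 lower (30.5%), and a difference of at least 2-fold in addition left 3149 higher and 4155 lower genes. In 2884 genes (12.3%) every GFP-intermediate library lay above every GFP-negative library in each of the 3 parts, and in 2685 genes (11.5%) every one lay below. With calls this frequent, each list is set against these shares and against the median difference of all genes, which was -0.0071. Scaled by DESeq2's size factors in place of TMM, the median of all genes was -0.127.

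**Figure D1:**
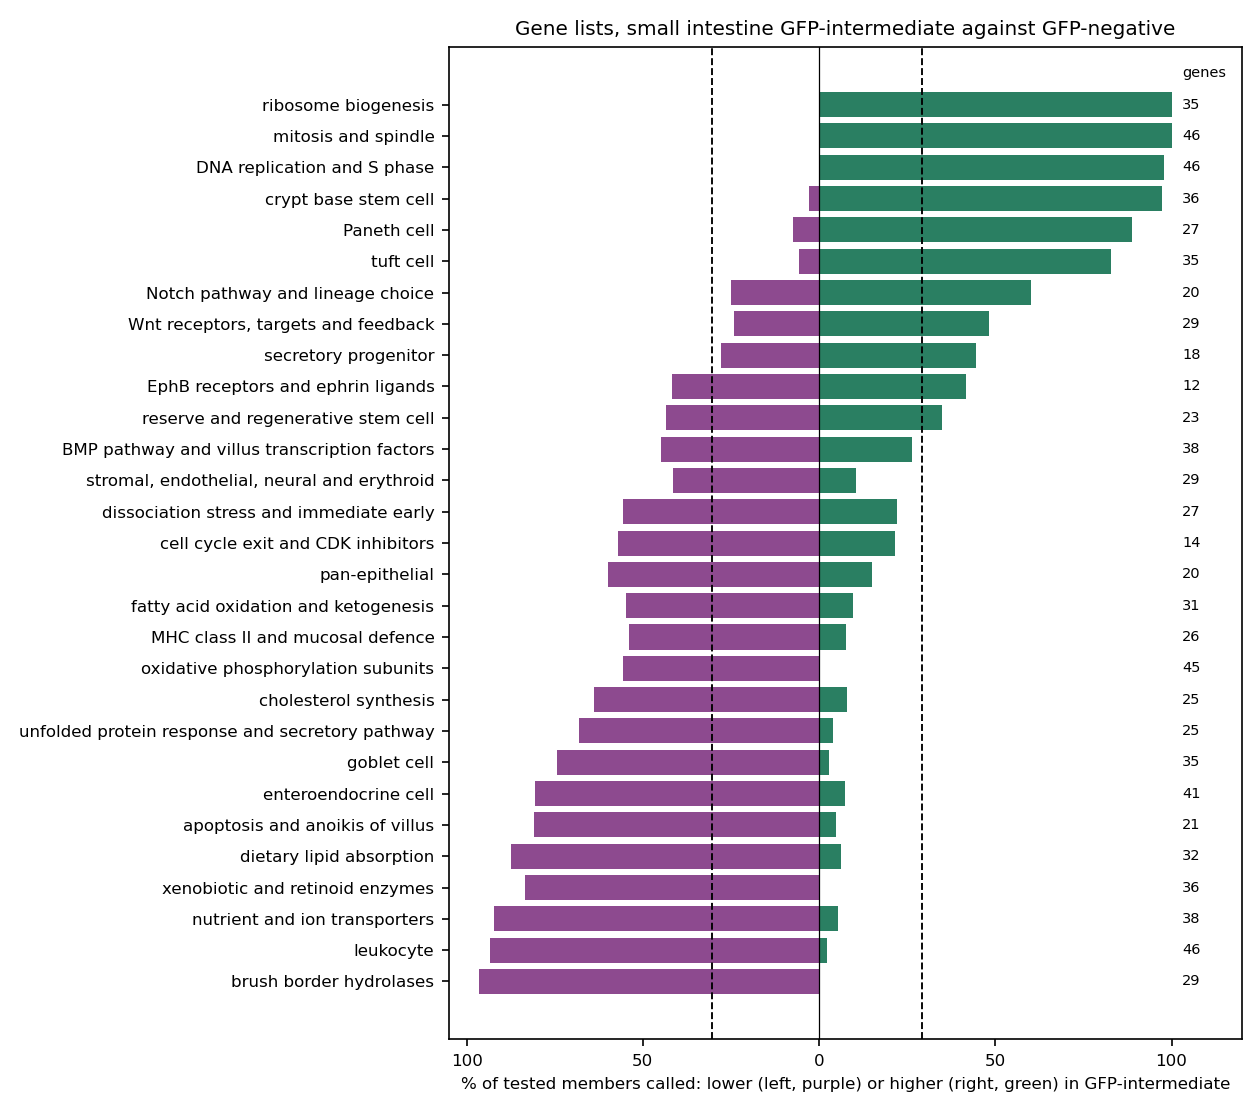
Share of the tested members of 29 gene lists called higher or lower in GFP-intermediate than in GFP-negative cells of the small intestine, in percent, with the shares over all genes (29.3% higher and 30.5% lower) as dashed lines. All 35 ribosome biogenesis genes and all 46 mitosis genes were called higher, and 28 of 29 brush border genes lower.

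Leukocyte RNA was higher in the GFP-negative fraction. Of 46 leukocyte genes, 43 were lower in GFP-intermediate cells, and their summed level was 77.8 to 159 CPM (median 93.4) in the GFP-intermediate libraries, against 948 to 6802 CPM (median 2581) in the GFP-negative libraries. Ptprc, the pan-leukocyte phosphatase CD45, was at 4.68 to 32.7 CPM in GFP-intermediate libraries and 49.5 to 423 CPM in GFP-negative libraries (-4.26 ± 0.33). The T cell receptor subunit Cd3e was at 0 to 1.16 CPM in GFP-intermediate libraries, against 11.7 to 129 CPM in GFP-negative libraries. Itgae, the integrin chain by which intraepithelial lymphocytes hold on to E-cadherin, was at 1.5 to 4.24 CPM in GFP-intermediate against 26.1 to 278 CPM in GFP-negative cells, the lymphocyte protease gene Gzma at 0.0914 to 8.45 CPM in GFP-intermediate against 100 to 1379 CPM in GFP-negative cells, and Jchain, which joins secreted IgA, at 0.0683 to 1.21 CPM in GFP-intermediate against 26.7 to 348 CPM in GFP-negative cells. In 32 of the 46 genes the GFP-intermediate mean was below 1 CPM, as the GFP-negative mean was in 3. Kit, a receptor of mast cells that gut epithelium also expresses, was the member called higher (0.55 ± 0.12). Among genes at a mean of 10 CPM or more in the higher fraction and without overlap in any part, the 15 named with the largest negative differences were immunoglobulin genes and the mast cell protease gene Mcpt1. Of 29 stromal, endothelial, neural and erythroid genes, 12 were lower and 3 higher, with summed levels of 13.8 to 24.6 CPM in GFP-intermediate libraries and 26 to 118 CPM in GFP-negative libraries; the endothelial Pecam1 was at 0.0881 to 0.422 CPM in GFP-intermediate against 2.72 to 17.6 CPM in GFP-negative cells. The part of leukocyte RNA in the other differences was not tested.

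**Figure D2:**
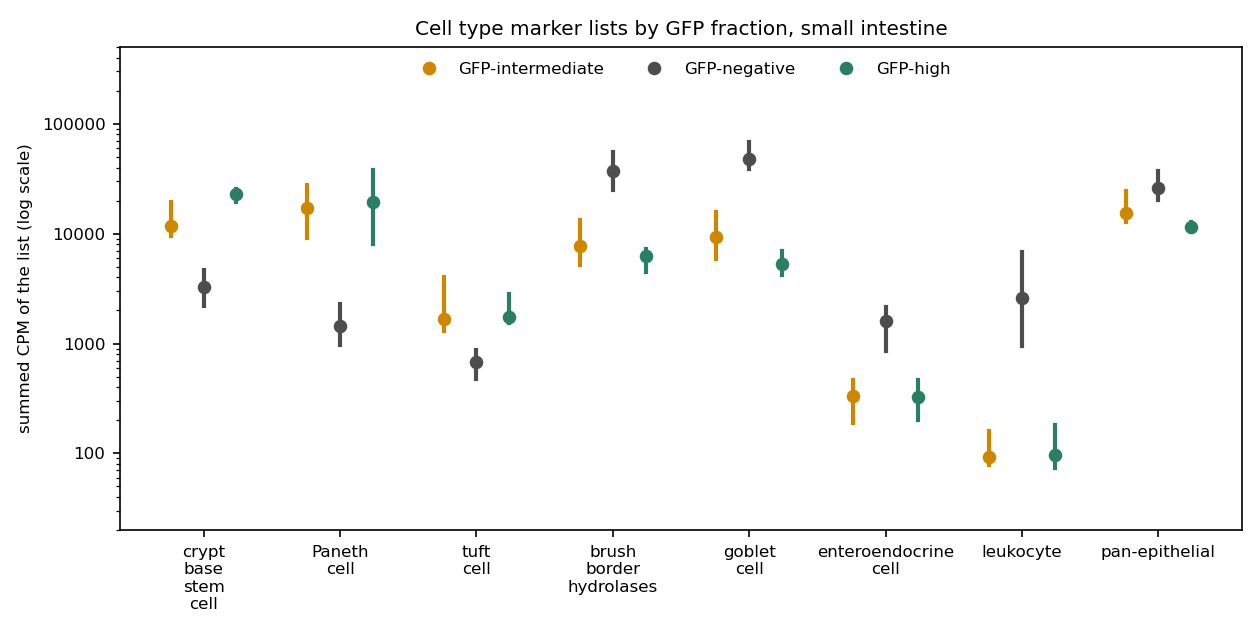
Summed CPM (log scale) of 8 marker lists in the libraries of each fraction of the small intestine. The leukocyte sum lies at 77.8 to 159 CPM in GFP-intermediate libraries and 948 to 6802 CPM in GFP-negative libraries, and the crypt base sum at 9601 to 19510 CPM and 2207 to 4717 CPM.

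Crypt base genes were higher with 1 exception. Of 36 members 35 were called higher and 1 lower, with a median difference of 2.6, and their summed level had a median of 11780 CPM in GFP-intermediate, 3262 CPM in GFP-negative and 22900 CPM in GFP-high libraries. Lgr5, which the sort used, is counted in this list, in these values and in those against GFP-high below, and its place there was set by the gate. Olfm4, a secreted glycoprotein of crypt base columnar cells, was at 4717 to 11610 CPM (median 5781) in GFP-intermediate libraries, against 136 to 804 CPM (median 358) in GFP-negative libraries. No library of one fraction reached the other, and the difference was 4.22 ± 0.47 (adjusted p = 2.81e-11). Ascl2, a transcription factor that maintains these cells, was at 30.8 to 63.4 CPM in GFP-intermediate libraries and 1.52 to 6.62 CPM in GFP-negative libraries (3.88 ± 0.21). The smallest p-values in the list belonged to Cdca7, a MYC-responsive chromatin protein, with 269 to 398 CPM in GFP-intermediate against 30.2 to 65.2 CPM in GFP-negative cells (2.74 ± 0.08, adjusted p = 3.25e-33), and to Smoc2, a secreted matricellular protein, with 236 to 324 CPM in GFP-intermediate against 18.4 to 53.2 CPM in GFP-negative cells (2.86 ± 0.08). The TNF receptor family member Tnfrsf19, also called Troy, differed by 4.78 ± 0.18 and the RNA-binding protein Mex3a by 3.24 ± 0.12. Rgmb, a BMP co-receptor, and Cdk6, a G1 kinase, differed by 2.27 ± 0.09 and 2.24 ± 0.09. Clca4b, of the chloride channel regulator family, was the exception, at 191 to 784 CPM in GFP-intermediate libraries and 399 to 2418 CPM in GFP-negative libraries (-1.82 ± 0.17), ranges that overlap. Against GFP-high cells, 30 of the 36 genes were called lower in GFP-intermediate cells and 0 higher, where 23.9% of all genes were called in either direction; that comparison shares the GFP-intermediate libraries.

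**Figure D3:**
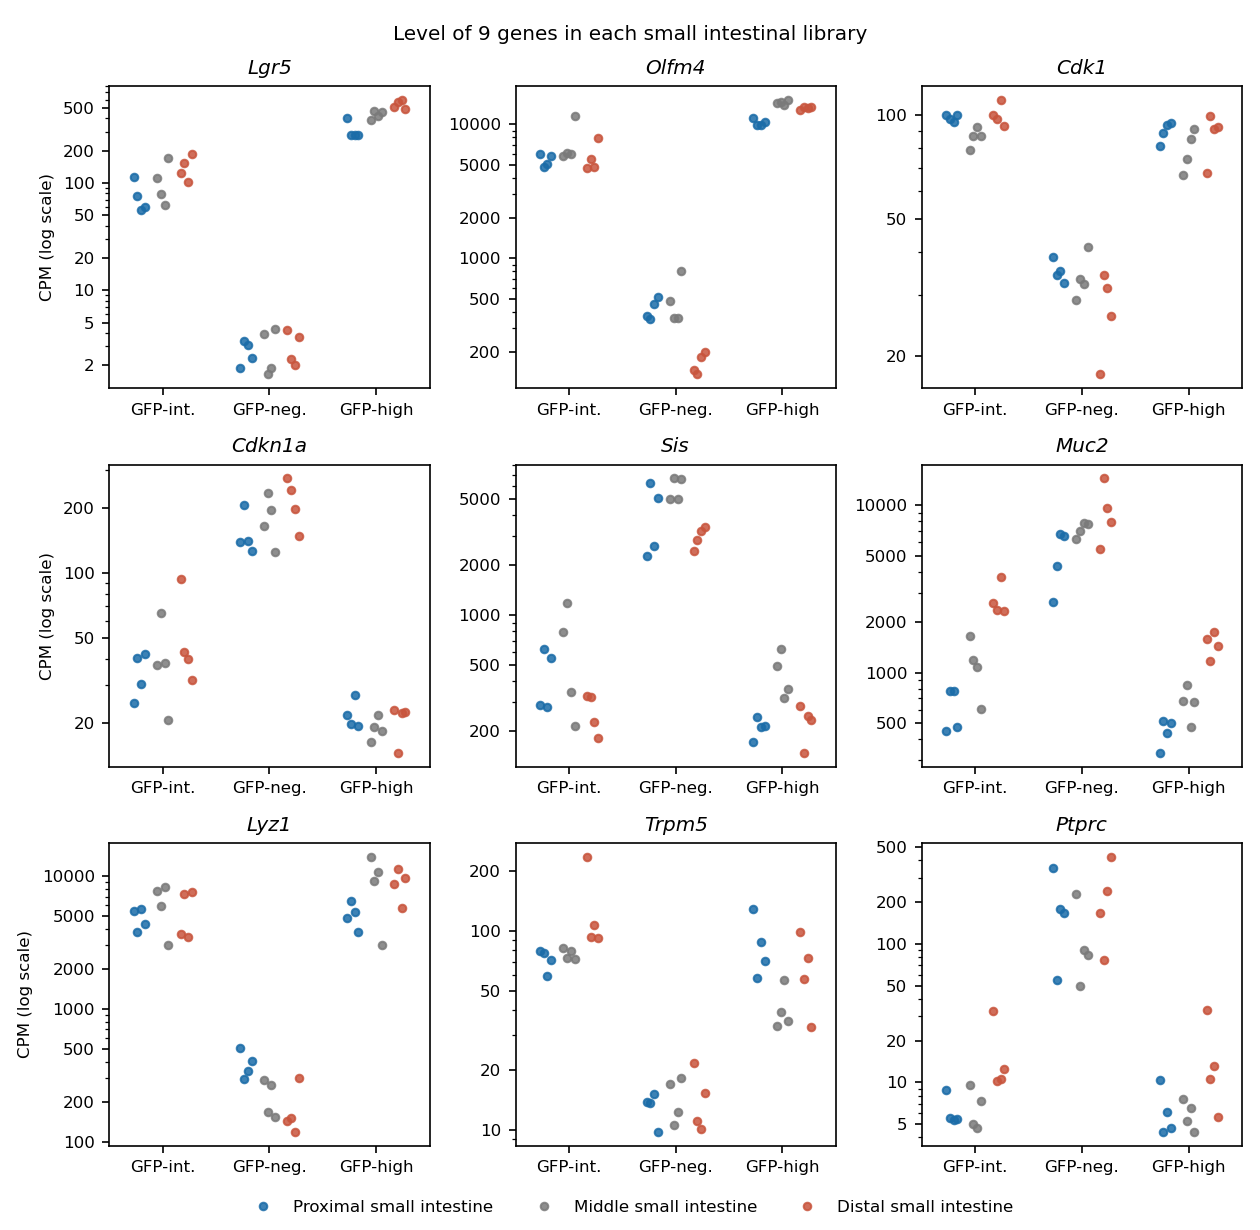
CPM (log scale) of 9 genes in every library of the 3 fractions of the small intestine; each point is 1 library. Lgr5 stands at 55.7 to 188 CPM in GFP-intermediate libraries and 1.65 to 4.33 CPM in GFP-negative libraries, and Sis at 180 to 1185 CPM in GFP-intermediate against 2271 to 6667 CPM in GFP-negative cells.

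Wnt pathway genes went in both directions. Of 29 Wnt receptors, targets and feedback genes 14 were higher and 7 lower. The target Myc was at 123 to 169 CPM in GFP-intermediate libraries, against 13.6 to 34.7 CPM in GFP-negative libraries (2.42 ± 0.11), and the G1 cyclin Ccnd1 differed by 1.12 ± 0.08. The receptors Fzd2 and Fzd7 differed by 3.65 ± 0.25 and 1.23 ± 0.10, and the feedback inhibitor Nkd1 by 4.38 ± 0.24, at a GFP-intermediate median of 4.66 CPM. Wnt3, the ligand that Paneth cells make in mice, was at 6.92 to 23.8 CPM in GFP-intermediate libraries and 1.2 to 2.95 CPM in GFP-negative libraries (2.76 ± 0.26). Lef1, a TCF family factor that lymphocytes also use, was lower at medians of 0.117 CPM in GFP-intermediate libraries and 0.738 CPM in GFP-negative libraries (-3.46 ± 0.53), beside the leukocyte values given above.

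Of 20 Notch pathway and lineage choice genes, 12 were higher and 5 lower. The receptor Notch1 was at 40.6 to 118 CPM in GFP-intermediate libraries and 17.7 to 34.6 CPM in GFP-negative libraries (1.96 ± 0.12). Its target Hes1, which represses the secretory fate, was at 67.8 to 110 CPM in GFP-intermediate against 21.5 to 48.6 CPM in GFP-negative cells (1.42 ± 0.10), and the progenitor factor Sox4 at 116 to 242 CPM in GFP-intermediate against 10.3 to 34.8 CPM in GFP-negative cells (2.96 ± 0.13). The secretory regulator Atoh1 was lower by less, at 16.5 to 80.04 CPM in GFP-intermediate libraries and 26 to 87.7 CPM in GFP-negative libraries (-0.49 ± 0.13), with wide overlap, and Gfi1, which acts after it, differed by -1.27 ± 0.20. Neurog3, which commits cells to the enteroendocrine lineage, was higher, with medians of 8.04 CPM in GFP-intermediate against 2.38 CPM in GFP-negative cells (1.98 ± 0.28). The list of 12 Eph receptors and ephrins was even, with 5 higher and 5 lower. The receptors Ephb2 and Ephb3, which keep cells low in the crypt, were at 189 to 277 CPM and 58.3 to 108 CPM in GFP-intermediate libraries, against 55.4 to 92.2 CPM and 4.34 to 10.9 CPM in GFP-negative libraries (1.53 ± 0.08 and 3.46 ± 0.13). Their ligand Efnb2 was lower, at 23.1 to 56.9 CPM in GFP-intermediate against 102 to 185 CPM in GFP-negative cells (-1.70 ± 0.13).

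Division genes were higher nearly throughout. Of 46 DNA replication and S phase genes 45 were called higher and 0 lower (median 1.58), and of 46 mitosis and spindle genes 46 were higher (median 1.23). Taken by part, 44, 45 and 45 S phase genes and 45, 46 and 46 mitosis genes were higher in the proximal, middle and distal small intestine, where 19.7%, 19.8% and 22.8% of all genes were called higher and 21.9%, 21.2% and 21.7% lower. The origin protein gene Orc1 was at 9.87 to 15.6 CPM in GFP-intermediate libraries and 1.47 to 4.33 CPM in GFP-negative libraries (2.16 ± 0.11). The replicative helicase subunits Mcm2 and Mcm7 differed by 1.92 ± 0.12 and 1.83 ± 0.12, and the maintenance methyltransferase Dnmt1 by 1.64 ± 0.11. Cdk1, the kinase that starts mitosis, was at 79 to 111 CPM in GFP-intermediate libraries, against 17.7 to 41.3 CPM in GFP-negative libraries, with no overlap (1.56 ± 0.13, adjusted p = 5.33e-15). Its partner cyclin Ccnb2 was at 82.8 to 122 CPM in GFP-intermediate against 30.7 to 63.9 CPM in GFP-negative cells (1.04 ± 0.09), and the chromosome passenger kinase Aurkb differed by 1.62 ± 0.14. GFP-negative cells also held division RNA: the mitosis list summed to 4690 to 5765 CPM in GFP-intermediate libraries and 1010 to 3385 CPM in GFP-negative libraries. The S phase gene that was not called was E2f2, at 80.2 to 114 CPM in GFP-intermediate against 76.5 to 154 CPM in GFP-negative cells. Between GFP-intermediate and GFP-high cells, 41 of the S phase genes and 38 of the mitosis genes were not called.

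The upstream sequences of 4 division genes are shown because these lists moved together and because cell cycle promoters are known for a few short elements. They are the 250 bases before the annotated start (RefSeq, build GRCm38.p6), read 5′ to 3′, of Cdk1 (chr10:69352913-69353162, minus strand), Ccnb2 (chr9:70421555-70421804, minus strand) and the helicase subunits Mcm5 (chr8:75109259-75109508, plus strand) and Mcm6 (chr1:128359706-128359955, minus strand). Capitals mark matches on either strand to the cell cycle homology region, CHR (TTTGAA or TTCGAA), the CCAAT box (CCAAT) and the E2F site (TTTCCCGC, TTTGGCGC, TTTCGCGC or TTTGCCGC). Mcm5 and Mcm6 were chosen after their values and matches were seen, and differed by 1.92 ± 0.14 and 1.96 ± 0.14.
Cdk1: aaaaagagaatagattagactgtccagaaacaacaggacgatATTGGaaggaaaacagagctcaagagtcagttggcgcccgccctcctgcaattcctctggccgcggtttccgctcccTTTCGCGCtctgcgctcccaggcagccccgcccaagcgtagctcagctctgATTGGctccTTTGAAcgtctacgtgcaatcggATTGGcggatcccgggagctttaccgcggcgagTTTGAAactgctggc
Ccnb2: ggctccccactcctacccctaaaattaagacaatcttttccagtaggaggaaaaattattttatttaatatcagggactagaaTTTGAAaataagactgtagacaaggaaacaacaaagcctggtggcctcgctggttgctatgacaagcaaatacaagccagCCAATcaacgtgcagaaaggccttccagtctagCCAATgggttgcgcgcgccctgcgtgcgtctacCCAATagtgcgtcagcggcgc
Mcm5: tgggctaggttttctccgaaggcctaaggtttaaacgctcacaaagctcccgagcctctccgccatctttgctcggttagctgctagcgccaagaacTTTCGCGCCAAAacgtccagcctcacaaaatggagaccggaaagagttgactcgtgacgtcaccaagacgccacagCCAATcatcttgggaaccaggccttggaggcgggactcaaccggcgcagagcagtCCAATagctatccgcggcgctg
Mcm6: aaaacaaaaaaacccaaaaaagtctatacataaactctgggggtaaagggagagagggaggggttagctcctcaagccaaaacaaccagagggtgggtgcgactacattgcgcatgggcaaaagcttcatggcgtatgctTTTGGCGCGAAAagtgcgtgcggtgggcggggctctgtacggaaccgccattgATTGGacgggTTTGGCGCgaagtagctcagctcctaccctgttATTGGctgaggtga
Cdk1 held 2 CHR, 3 CCAAT and 1 E2F match, and Ccnb2 held 1 CHR and 3 CCAAT matches. Mcm5 held 2 CCAAT and 2 E2F matches and Mcm6 held 2 CCAAT and 3 E2F matches, and in each a pair of E2F matches overlaps. CHR words stood before the start of 35.9% of the 39 mitosis genes with a sequence at hand and 24.3% of 37 S phase genes, and of 8.33% of 24 brush border genes, 11.5% of 26 dietary lipid genes and 29% of 31 nutrient and ion transporters, which were mostly lower, against 16% of 14208 tested genes. CHR words were not limited to the division lists. CCAAT words stood in 66.7% of the mitosis genes and 59.5% of the S phase genes, and in 37.5%, 46.2% and 29% of the 3 enterocyte lists in the order above, against 39.4% of all. E2F words stood in 2.56% of the mitosis genes, 27% of the S phase genes and 0 of those in the 3 enterocyte lists, against 3.32% of all. A match describes the letters in this window and was not tied to binding.

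Cell cycle exit genes were lower in most cases. Of 14 members 8 were lower and 3 higher. The p21 gene Cdkn1a was at 20.6 to 93.3 CPM in GFP-intermediate, 125 to 274 CPM in GFP-negative and 14.6 to 27.2 CPM in GFP-high libraries (-2.12 ± 0.18 against GFP-negative). The p15 gene Cdkn2b was at 10.1 to 43.5 CPM in GFP-intermediate libraries and 72.3 to 204 CPM in GFP-negative libraries (-2.44 ± 0.22). The cyclin G2 gene Ccng2 differed by -1.67 ± 0.13 and the retinoblastoma gene Rb1 by -1.08 ± 0.12. The p18 gene Cdkn2c was higher (1.12 ± 0.14), at 30.8 to 49.5 CPM in GFP-intermediate against 10.7 to 25.2 CPM in GFP-negative cells. Ribosome biogenesis was higher for 35 of 35 genes (median 1.25), and for the same number in each part. The nucleolar proteins Ncl and Npm1 were at 1189 to 1543 CPM and 719 to 982 CPM in GFP-intermediate libraries, against 279 to 687 CPM and 199 to 373 CPM in GFP-negative libraries (1.55 ± 0.07 and 1.54 ± 0.07). The RNA polymerase I subunit Polr1b differed by 1.63 ± 0.07 and the pseudouridine synthase Dkc1 by 1.60 ± 0.07.

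Enterocyte genes were lower in GFP-intermediate cells across digestion, uptake and lipid handling. Of 29 brush border genes 28 were called lower and 0 higher (median -2.34), of 38 nutrient and ion transporters 35 lower and 2 higher (median -2.42), and of 32 genes of dietary lipid absorption 28 lower and 2 higher (median -2.26). Sucrase-isomaltase, Sis, which splits table sugar and starch fragments, was at 180 to 1185 CPM (median 321) in GFP-intermediate libraries, against 2271 to 6667 CPM (median 4204) in GFP-negative libraries (-3.31 ± 0.24, adjusted p = 1.83e-17). Its ranges did not overlap. Alkaline phosphatase Alpi, a marker of mature enterocytes, differed by -2.73 ± 0.23, with overlapping ranges of 29.5 to 585 CPM in GFP-intermediate libraries and 381 to 2999 CPM in GFP-negative libraries. The aminopeptidase Anpep and the dipeptidyl peptidase Dpp4 differed by -3.03 ± 0.21 and -2.05 ± 0.11. The microvillus bundler Vil1 was at 705 to 1324 CPM in GFP-intermediate against 2183 to 4213 CPM in GFP-negative cells (-1.79 ± 0.09). Tmprss15, the enteropeptidase that starts trypsin activation, was the member not called, at 0 to 42 CPM in GFP-intermediate against 0 to 100 CPM in GFP-negative cells.

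The lipid genes spanned entry to export. The fatty acid carrier Fabp2 was at 193 to 747 CPM in GFP-intermediate libraries, against 1834 to 3585 CPM in GFP-negative libraries (-2.81 ± 0.17). Acsl5, which activates fatty acids, Dgat1, which completes triglycerides, and Mttp, which loads them on chylomicrons, differed by -2.01 ± 0.09, -1.94 ± 0.11 and -2.69 ± 0.15. The apolipoprotein Apoa4 differed by -2.46 ± 0.33, with overlapping ranges. Acsl3, another acyl-CoA synthetase, was higher (0.90 ± 0.10), at 45.8 to 83.3 CPM in GFP-intermediate against 23.5 to 45.3 CPM in GFP-negative cells. Among transporters, the sodium-glucose carrier Slc5a1 was at 197 to 756 CPM in GFP-intermediate libraries and 893 to 3365 CPM in GFP-negative libraries (-2.52 ± 0.16). The amino acid exporter chain Slc7a7 differed by -2.14 ± 0.12 and Heph, the oxidase that works with iron export, by -1.79 ± 0.10. The transporters called higher were Cybrd1, a ferric reductase of iron uptake (2.20 ± 0.43, at a GFP-intermediate median of 4.57 CPM), and the lactate carrier Slc16a1 (0.37 ± 0.06), each with overlapping ranges.

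Metabolic lists differed by less, except for detoxification. Of 36 xenobiotic and retinoid enzymes 30 were lower and 0 higher (median -2.24), such as the retinal dehydrogenase Aldh1a1 (-2.88 ± 0.19) and the sulfotransferase Sult1b1 (-2.38 ± 0.15). Of 31 genes of fatty acid oxidation and ketogenesis 17 were lower and 3 higher (median -0.44). Bdh1, an enzyme of ketone body synthesis, was among those called higher (0.53 ± 0.06). Of 45 oxidative phosphorylation subunits 25 were lower and 0 higher (median -0.21), with the cytochrome c gene Cycs at -0.85 ± 0.09. The proximal part had 23 lower subunits, the middle part 18 and the distal part 3, with 2 higher. Over the 3 parts, 16 were lower without the libraries numbered 1. The test of the difference between distal and proximal parts called 1 subunit higher distally and 0 lower, with 44 not called. Of 25 cholesterol synthesis genes 16 were lower and 2 higher (median -0.3), with the desaturase Sc5d at -1.19 ± 0.08, and 10 were lower without the libraries numbered 3.

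Among 38 BMP pathway and villus transcription factor genes, 17 were lower and 10 higher. The factor Maf was at 14.5 to 69.8 CPM in GFP-intermediate libraries and 146 to 411 CPM in GFP-negative libraries (-2.97 ± 0.23), and Hnf4g, which drives enterocyte genes, differed by -1.56 ± 0.12. Prdm1, a repressor used by villus and by plasma cells, was at 1.11 to 3.24 CPM in GFP-intermediate against 7.87 to 23.9 CPM in GFP-negative cells (-2.70 ± 0.25), and the leukocyte sums given above differed in the same direction. The ligand Bmp7 was higher, at 19.4 to 32.3 CPM in GFP-intermediate against 4.18 to 13 CPM in GFP-negative cells (1.98 ± 0.12), as was the epithelial ETS factor Ehf (1.15 ± 0.09).

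Paneth cell genes were higher and led the positive differences. Of 27 members 24 were higher and 2 lower (median 3.88), and, by the same criteria, the 15 genes with the largest positive differences were Lgr5, the pentraxin Mptx2 and alpha-defensin genes, 1 of them a pseudogene. Lysozyme, Lyz1, was at 3019 to 8296 CPM (median 5549) in GFP-intermediate libraries, against 119 to 507 CPM (median 279) in GFP-negative libraries (4.46 ± 0.27, adjusted p = 5.1e-20). Mptx2 was at 182 to 480 CPM in GFP-intermediate against 2.42 to 19 CPM in GFP-negative cells (5.17 ± 0.30). The defensin-activating protease Mmp7 was at 57.4 to 222 CPM in GFP-intermediate against 7 to 67.6 CPM in GFP-negative cells (2.66 ± 0.23), ranges that overlap at their ends. Defa21 differed by 5.33 ± 0.34, Defa22 by 5.15 ± 0.33 and Defa24 by 3.93 ± 0.32. Defa21 averaged 128, 1422 and 2012 CPM in proximal, middle and distal GFP-intermediate libraries, against 5.34, 31.2 and 33.6 CPM in GFP-negative libraries. Alpha-defensin genes are near-identical copies, so reads of one can be counted for another and their single values are uncertain. The 250 bases before the start of Defa22 (chr8:21162027-21162276, plus strand, RefSeq, GRCm38.p6) are shown as an example of such likeness, with matches left unmarked. The window held 1 CCAAT match, 0 CHR and 0 E2F matches. Defa21 has the same base at 250 of 250 positions there. This window lies before the start, so it does not show how reads were assigned, and likeness of the transcripts was not examined.
Defa22: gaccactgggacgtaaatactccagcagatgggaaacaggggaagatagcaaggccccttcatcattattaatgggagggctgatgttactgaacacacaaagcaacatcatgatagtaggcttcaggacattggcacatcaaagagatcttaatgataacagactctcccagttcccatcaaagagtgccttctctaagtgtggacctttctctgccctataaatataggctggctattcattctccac
The members called lower were Guca2b, the peptide uroguanylin that enterocytes also make (-2.26 ± 0.15), and Mptx1, a relative of Mptx2, at 1.14 to 4.82 CPM in GFP-intermediate against 3.07 to 11.3 CPM in GFP-negative cells (-1.70 ± 0.36). The Paneth list summed to 9177 to 27670 CPM in GFP-intermediate, 961 to 2308 CPM in GFP-negative and 8090 to 38020 CPM in GFP-high libraries.

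Goblet cell genes were lower. Of 35 members 26 were lower and 1 higher (median -1.04). The mucin Muc2 was at 449 to 3733 CPM in GFP-intermediate libraries, against 2652 to 14470 CPM in GFP-negative libraries (-2.49 ± 0.18), ranges that overlap over the 3 parts. The lectin Zg16 was at 117 to 833 CPM in GFP-intermediate against 3448 to 7675 CPM in GFP-negative cells, with no overlap (-3.82 ± 0.24). Clca1, which processes mucus, and Fcgbp, a mucus protein, differed by -3.38 ± 0.31 and -2.63 ± 0.21. The chemokine Ccl9 was the member called higher (0.55 ± 0.15), with overlapping ranges. Of 25 unfolded protein response and secretory pathway genes 17 were lower and 1 higher, with the factor Xbp1 at -0.71 ± 0.07, the degradation factor Edem1 at -1.09 ± 0.07 and the asparagine synthetase Asns at 0.84 ± 0.10.

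Tuft cell genes were higher in GFP-intermediate cells. Of 35 members 29 were higher and 2 lower (median 2.47). The channel Trpm5, through which these chemosensory cells signal, was at 59.4 to 236 CPM (median 79.7) in GFP-intermediate libraries, against 9.8 to 21.8 CPM (median 13.8) in GFP-negative libraries, with no overlap (2.68 ± 0.16, adjusted p = 4.43e-20). The kinase Dclk1, a marker of these cells, was at 56.1 to 170 CPM in GFP-intermediate against 6.88 to 23.6 CPM in GFP-negative cells (2.59 ± 0.17), and the lineage factor Pou2f3 at 7.2 to 31.7 CPM in GFP-intermediate against 1.08 to 3.43 CPM in GFP-negative cells (2.46 ± 0.18). Avil, an actin-binding protein of the tuft, Siglecf, a surface lectin, and Alox5, of leukotriene synthesis, differed by 2.47 ± 0.17, 3.16 ± 0.23 and 2.83 ± 0.21. The members called lower were the calcium release channel Itpr2 (-0.58 ± 0.10) and the taste receptor subunit Tas1r3 (-0.53 ± 0.20); the Tas1r3 call was lost without middle GFP-negative library 3 (adjusted p = 0.0507, edgeR). Distal GFP-intermediate library 1 stood above the other 11, with a list sum of 4009 CPM where the next held 2063 CPM, and it also held the highest Ptprc of that fraction, 32.7 CPM. Without that library 28 tuft genes were called higher and 2 lower. In GFP-high cells Trpm5 was at 32.9 to 129 CPM, and GFP-intermediate cells differed from these by 0.55 ± 0.15.

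Enteroendocrine genes were lower. Of 41 members 33 were lower and 3 higher (median -2.0). Chromogranin A, Chga, was at 9.39 to 38 CPM in GFP-intermediate libraries, against 71.7 to 222 CPM in GFP-negative libraries (-2.68 ± 0.27), and the granin Chgb and the factor Neurod1 differed by -2.27 ± 0.24 and -1.48 ± 0.26. The peptide hormone genes Nts (neurotensin) and Gip had medians of 1.56 CPM and 5.46 CPM in GFP-intermediate libraries, against 97.7 CPM and 169 CPM in GFP-negative libraries (-6.00 ± 0.48 and -4.85 ± 0.40). Tph1, which makes serotonin in enterochromaffin cells, differed by -3.14 ± 0.26. Neurog3, given above, was among the members called higher. Of 18 secretory progenitor genes 8 were higher and 5 lower.

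Genes linked to reserve or regenerating stem cells split, with 8 of 23 members higher and 10 lower. Lrig1, an EGF receptor brake of crypt cells, and Cd44, a hyaluronan receptor, were at 203 to 300 CPM and 89.6 to 161 CPM in GFP-intermediate libraries, against 47.8 to 77.5 CPM and 16.2 to 34.9 CPM in GFP-negative libraries (1.90 ± 0.08 and 2.37 ± 0.13). Both are also counted in the crypt base list. The homeodomain factor Hopx and the Hippo effector Yap1 differed by 1.45 ± 0.16 and 0.75 ± 0.07. Among the members called lower were some known from injured or fetal-like mouse epithelium. Anxa3 differed by -3.04 ± 0.17, S100a6 was at 1.95 to 20.5 CPM in GFP-intermediate against 25.4 to 115 CPM in GFP-negative cells (-3.08 ± 0.16), and Ly6a, also called Sca-1, had medians of 1.34 CPM in GFP-intermediate against 6.02 CPM in GFP-negative cells (-2.17 ± 0.22). Ly6a and S100a6 are expressed in leukocytes too, whose sums are given above.

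Genes on the defence and apoptosis lists were lower more often than higher. Of 26 genes of antigen presentation and mucosal defence 14 were lower and 2 higher, and 9 were lower without the libraries numbered 2. Reg3g, an antibacterial lectin, differed by -1.86 ± 0.37 and the cytokine Il18 by -2.82 ± 0.20. The members called higher were the superoxide-making oxidase Nox1 (2.99 ± 0.33) and its activator Noxa1 (2.30 ± 0.14). Nox1 was at 0.973 to 81.7 CPM in GFP-intermediate libraries and 0.309 to 5.69 CPM in GFP-negative libraries, ranges that overlap over the 3 parts. Of 21 genes of apoptosis and villus shedding 17 were lower and 1 higher (median -0.72). The death receptor Fas was at 2.16 to 5.96 CPM in GFP-intermediate against 15.8 to 35.7 CPM in GFP-negative cells (-2.73 ± 0.18), and the survival factor Mcl1 differed by -0.83 ± 0.05. Of 20 general epithelial genes 12 were lower and 3 higher, with the villus keratin Krt20 at -2.63 ± 0.23, Krt8 at -0.70 ± 0.09 and Krt18 at 0.67 ± 0.09. Of 27 dissociation stress and immediate early genes 15 were lower and 6 higher, while their summed level was higher, at 3329 to 4263 CPM (median 3965) in GFP-intermediate libraries and 2556 to 3769 CPM (median 3140) in GFP-negative libraries, ranges that overlap.

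The difference between GFP-intermediate and GFP-negative cells itself differed between the distal and the proximal part in 279 genes (1.19%), 214 of them higher distally and 65 lower. In a fit of the 4 groups of these ends alone the counts were 24 and 9, and 48 and 27 with the replicate number as a block, while without distal GFP-intermediate library 1 there were 127 higher genes. Xenobiotic and retinoid enzymes held 6 such genes among 36 members, all higher distally. Adh1, an alcohol and retinol dehydrogenase, was at 106, 41.3, 56.1 and 45.4 CPM in distal GFP-intermediate libraries, against 16.4, 13.3, 17.6 and 14.9 CPM in distal GFP-negative libraries. In the proximal part it was at 217, 249, 228 and 234 CPM in GFP-intermediate libraries and 613, 582, 427 and 509 CPM in GFP-negative libraries. The fractions did not overlap at either end and stood in opposite order, and the distal difference exceeded the proximal one by 3.20 ± 0.33 (adjusted p = 2.52e-09). The glutathione transferase Gstm1 was at 63.2, 43.8, 50.4 and 44 CPM in distal GFP-intermediate libraries, against 16.2, 20, 20.3 and 31 CPM in distal GFP-negative libraries. Proximally it was at 89.7, 88.5, 81 and 90.7 CPM in GFP-intermediate libraries, against 194, 318, 155 and 245 CPM in GFP-negative libraries. It turned in the same way as Adh1, by 2.58 ± 0.26. Gsta4, of the same enzyme class, was at 11.7, 20.6, 12.8 and 21.8 CPM in proximal GFP-intermediate libraries, against 177, 176, 128 and 174 CPM in proximal GFP-negative libraries, and the distal fractions lay closer together (distal minus proximal 2.48 ± 0.34). The reductase Dhrs1 differed between the ends by 1.31 ± 0.24.

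Other genes also differed between the ends. Bex1, a small adaptor protein, was at 37.7, 29.8, 32.4 and 28.2 CPM in distal GFP-intermediate libraries, against 1.84, 1.1, 1.14 and 0.291 CPM in distal GFP-negative libraries (distal minus proximal 3.32 ± 0.67). Rhobtb3, a BTB domain protein, was at 7.88, 13.2, 14.2 and 14.9 CPM in distal GFP-intermediate libraries, against 0.641, 1.4, 1.86 and 0.874 CPM in distal GFP-negative libraries, while its proximal fractions overlapped (3.17 ± 0.33). The magnesium channel Trpm6 was lower in distal GFP-intermediate cells, at 8.87, 3.72, 7.28 and 3.56 CPM against 27.7, 11.4, 18.7 and 13.9 CPM in GFP-negative cells, and higher in proximal ones, at 5.97, 2.47, 5.58 and 3.14 CPM in GFP-intermediate against 0.779, 0.804, 1.15 and 0.293 CPM in GFP-negative cells (-4.11 ± 0.55, adjusted p = 2.37e-06). The stress kinase Map3k6 differed between the ends by -2.11 ± 0.31. In the crypt base list the distal difference minus the proximal one was 0.98 ± 0.19 for Smoc2 and -1.97 ± 0.40 for Clca4b. In the fit of the 4 groups alone, Clca4b and Bex1 no longer passed (adjusted p = 0.0521 and 0.204, edgeR). With the replicate number as a block in that fit, Dhrs1 and Bex1 did not pass (adjusted p = 0.0523 and 0.074, edgeR). Gsta4, Dhrs1 and Smoc2 were picked for this contrast from their lists after their values were seen.

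**Figure D4:**
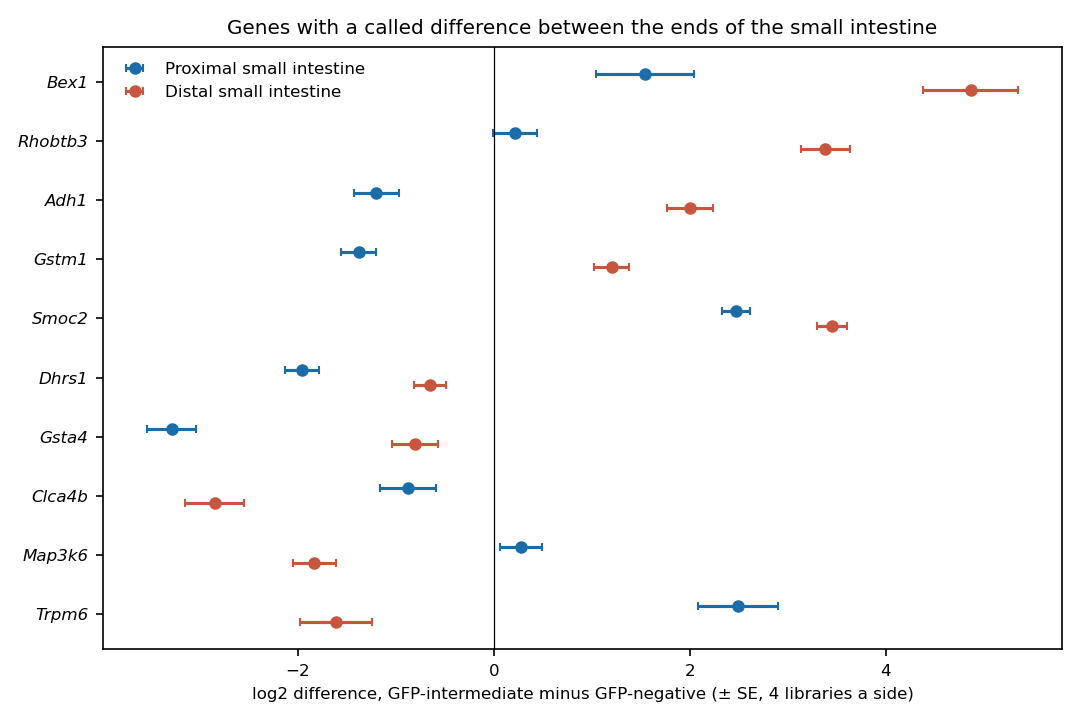
Log2 difference between GFP-intermediate and GFP-negative cells, with its SE, in the proximal and the distal small intestine for genes whose difference was called between the ends, from 4 libraries a side. The distal minus the proximal value is 3.20 for Adh1 and -4.11 for Trpm6.

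The colon, sorted by the same allele from 2 parts with 4 libraries for each fraction, is the nearest comparison in the series, and 29.5% of all genes differed between the organs in their difference between GFP-intermediate and GFP-negative cells. Tuft genes differed between the organs. Of 35 members 31 were called higher in the small intestinal difference than in the colonic one and 0 lower, and of the 32 with at least 1 CPM in each organ, 26 had a positive difference in the small intestine and a negative one in the colon. Trpm5 averaged 93.7 ± 46.4 CPM in small intestinal GFP-intermediate and 14.1 ± 3.66 CPM in small intestinal GFP-negative libraries (SD, n = 12 each). In the colon it averaged 35 ± 21.6 CPM in GFP-intermediate libraries and 54.6 ± 17.3 CPM in GFP-negative libraries (SD, n = 8 each), and the small intestinal difference exceeded the colonic one by 3.56 ± 0.25 (edgeR adjusted p = 4.46e-16). Dclk1 averaged 46 ± 29.1 CPM and 93.3 ± 33.8 CPM in colon GFP-intermediate and GFP-negative libraries (SD), and the organs were 3.86 ± 0.27 apart.

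Enteroendocrine differences were negative in both organs in 31 of 35 members at 1 CPM or more. Between the organs, 18 of 41 differed in the positive direction, as with Chga (1.61 ± 0.40) and Tph1 (2.09 ± 0.38). Of 46 mitosis genes 6 were called larger in the small intestine, beside 3774 of all 23360 genes called in that direction. Mitosis differences were positive in both organs in 46 of 46 genes. These counts by organ, and that of tuft genes above, take signs only, as the colonic difference alone was not tested. The share of all genes with the same signs was not computed. Lgr5, which the sort used, averaged 98.8 CPM in colon GFP-intermediate and 9.33 CPM in colon GFP-negative libraries. Lyz1 averaged 0.655 CPM and 2.45 CPM in the same colon fractions, and the organs were 7.97 ± 0.50 apart. Slc14a1, a urea channel, averaged 44.9 CPM and 6.04 CPM in small intestinal GFP-intermediate and GFP-negative libraries and 0.0406 CPM and 2.83 CPM in the colonic ones (9.06 ± 0.65 apart). The brush border peptidase Mme averaged 86.1 CPM in GFP-intermediate against 627 CPM in GFP-negative libraries of the small intestine, and 4.78 CPM in GFP-intermediate against 1.27 CPM in GFP-negative libraries of the colon (-4.86 ± 0.46 apart). Vil1 and Muc2 were -1.72 ± 0.14 and -2.23 ± 0.27 apart. The tuft and enteroendocrine genes, Vil1, Muc2 and Lgr5 were picked for this contrast from their lists after their values were seen.

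**Figure D5:**
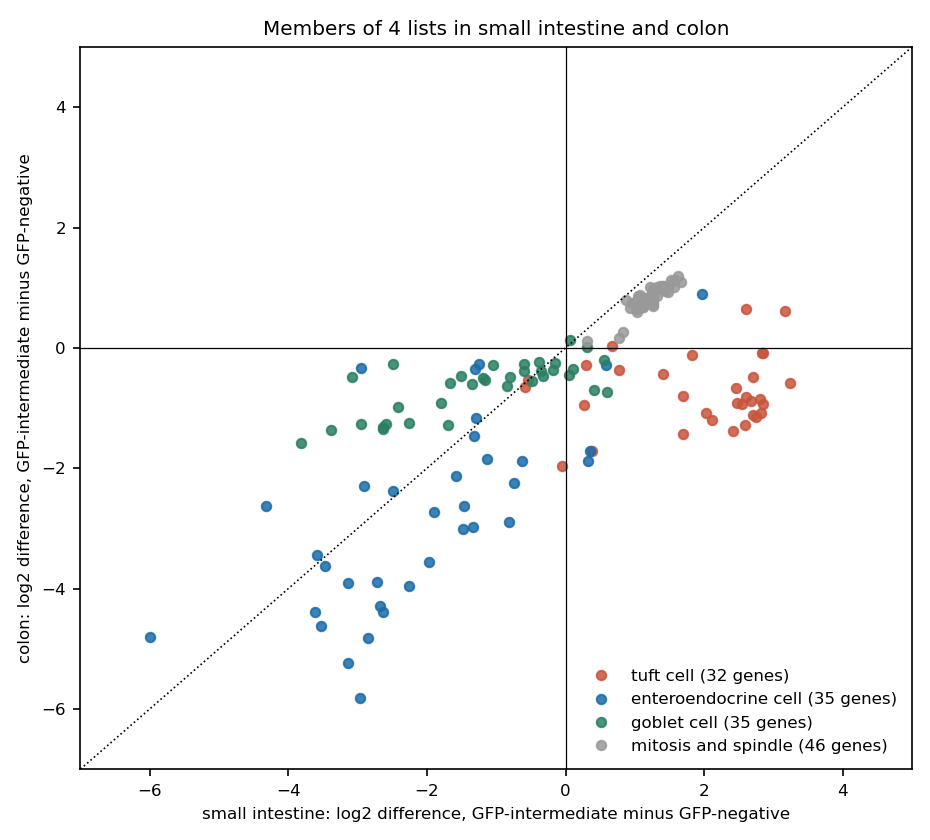
Log2 difference between GFP-intermediate and GFP-negative cells in the small intestine and in the colon for members of marker lists with at least 1 CPM in each organ; each point is 1 gene. Of 32 tuft genes 26 are positive in the small intestine and negative in the colon, while 46 mitosis genes are positive in both.

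Set against GFP-negative and GFP-high cells together, 645 genes (2.76%) were called above both fractions in GFP-intermediate cells and 401 (1.72%) below both; the contrasts share the GFP-intermediate libraries, and their values stand side by side. Among the 10 furthest above was Nrgn, a calmodulin-binding protein and a member of the tuft list. It was at 5.05 to 39.3 CPM in GFP-intermediate, 0.411 to 3.12 CPM in GFP-negative and 2.24 to 10.4 CPM in GFP-high libraries (2.85 ± 0.29 over GFP-negative and 0.92 ± 0.28 over GFP-high). Without distal GFP-intermediate library 1, which held the highest tuft sum, the Nrgn difference over GFP-high was 0.60 and did not pass (adjusted p = 0.0949, edgeR). Nrarp, a Notch target and feedback inhibitor, was at 13.5 to 24.9 CPM in GFP-intermediate, 2.19 to 7.95 CPM in GFP-negative and 4.82 to 15.6 CPM in GFP-high libraries (1.71 ± 0.20 and 0.75 ± 0.20). The splicing protein gene Snrpd2 and the ribosomal protein gene Rps28 differed from GFP-high by 0.78 ± 0.20 and 0.73 ± 0.25, and the Rps28 call was lost without middle GFP-intermediate library 3 (adjusted p = 0.0527, edgeR). These differences from GFP-high are means over the 3 parts, and the comparison was not tested by part. In the proximal part the fractions were close: Rps28 averaged 230.4 ± 40.4 CPM in GFP-intermediate against 264 ± 4.17 CPM in GFP-high libraries, Snrpd2 95.6 ± 4.40 CPM in GFP-intermediate against 91.4 ± 9.14 CPM in GFP-high libraries, and Nrgn 7.30 ± 1.59 CPM in GFP-intermediate against 7.35 ± 2.05 CPM in GFP-high libraries (SD, n = 4 each). In the middle part Rps28 averaged 212 CPM in GFP-intermediate against 94.1 CPM in GFP-high libraries, and in the distal part 186 CPM in GFP-intermediate against 80.5 CPM in GFP-high libraries. Proximal Nrarp averaged 15.3 ± 1.3 CPM in GFP-intermediate against 13.1 ± 1.4 CPM in GFP-high libraries (SD, n = 4 each). Nrarp averages in GFP-intermediate against GFP-high libraries were 15.9 against 7.18 CPM in the middle part and 23.6 against 12.8 CPM distally. Among the 10 furthest below was the actin bundler Lcp1, at 29.2 to 51.6 CPM in GFP-intermediate, 37.4 to 298 CPM in GFP-negative and 54.4 to 106 CPM in GFP-high libraries; it is known as a leukocyte protein, and the leukocyte list summed to 74.1 to 182 CPM in GFP-high libraries. The lipid phosphatase Inpp4b and the p53 target Trp53inp1 differed from GFP-negative by -2.19 ± 0.21 and -1.11 ± 0.14, and from GFP-high by -0.92 ± 0.21 and -0.92 ± 0.14.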

How the data were processed

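The deposited table holds raw read counts per gene and library for 55357 genes and 60 libraries, with STAR, Subread featureCounts, edgeR and the mm10 build named in the submitters' processing notes without roles or versions. Annotation release and strandedness are not given in the sources used here. The deposited log2 values of the same table were not used. Groups came from the sample titles, with 4 libraries in each of 15 groups.

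The counts of all 60 libraries were fitted together in edgeR 4.0.16 (R 4.3.3, limma 3.58.1): filterByExpr kept 23360 genes holding 99.97% to 99.99% of each library's counts, TMM scaled the libraries, and contrasts over the 15 group means were tested with the two-sided quasi-likelihood F test and Benjamini-Hochberg adjustment over all 23360 genes, called below 0.05. SE is the log2 difference divided by the root of F. Levels are TMM-scaled CPM, which compare libraries and not genes of different length. The fit was tested on simulated counts. Replicates differed by more than sampling noise. Alternatives were DESeq2 1.42.0 (size factors, Wald test), no filter, a fit of the compared groups, the newer quasi-likelihood form, a 2-fold minimum, a replicate block, and leaving out replicate numbers or single libraries.

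Replicate numbers equal the batch column of the deposited table in 60 of 60 libraries. All 12 same-numbered GFP-intermediate and GFP-negative pairs of the small intestine had deviations from their group means that correlated above 0.1. Part means were 0.312, 0.297 and 0.298 over 8000 genes, so the numbers pair these libraries. Means between different numbers were -0.102, -0.0965 and -0.0944. Taking deviations from group means makes these negative when the same-number values are positive, so they add no separate support. Libraries numbered 1 held 404 to 1070 CPM of Xist and 0 of the Y-linked Ddx3y in both fractions. Numbers 2 to 4 held Ddx3y and little Xist, so they came from other mice than number 1, though the labels give no sex.

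Lists, members and comparisons were chosen with earlier results of these data known. Some genes are members of more than 1 list, such as Sox9 and Cd24a, so the list counts are not independent of each other. Named genes are up to 8 called members a list with the smallest p, the members against a list's majority, defining markers, and the largest differences of each comparison at 10 CPM or more (15 genes a direction between fractions, 8 between parts or organs, 10 above or below both fractions); others are said to be picked. Some genes that this rule names are not reported here. Promoters came from RefSeq (GRCm38.p6), matched by symbol.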

Additional observations from a re-analysis of the deposited data

Results flagged for a closer look

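Distal and proximal small intestine differed in the GFP-intermediate against GFP-negative difference by the test of that difference itself for the 10 genes named above, by 3.20 for Adh1, 2.58 for Gstm1, 3.17 for Rhobtb3, 3.32 for Bex1, 2.48 for Gsta4, 1.31 for Dhrs1, 0.98 for Smoc2, -4.11 for Trpm6, -2.11 for Map3k6 and -1.97 for Clca4b, on the log2 scale. The same test between small intestine and colon gave 1.75 for Lgr5, 7.97 for Lyz1, 9.06 for Slc14a1, 3.56 for Trpm5, 3.86 for Dclk1, 1.61 for Chga, 2.09 for Tph1, -4.86 for Mme, -1.72 for Vil1 and -2.23 for Muc2.

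Among 66 groups of 4 libraries examined for the genes given by part, 5 held 1 library far from the other 3, where chance gives about 1 in 20. The libraries apart held 47.1 CPM of Adh1, 323 CPM of Smoc2 and 784 CPM of Clca4b in middle GFP-intermediate cells, and 128 CPM of Gsta4 and 584 CPM of Dhrs1 in proximal GFP-negative cells.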

How the results depend on the processing

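Requiring at least 2-fold in addition left 3149 higher and 4155 lower genes over the small intestine, 2273 and 3244 in the proximal, 2278 and 3072 in the middle and 2841 higher in the distal part, 129 higher between distal and proximal, 1331 and 1490 between small intestine and colon, and 380 and 273 against GFP-high. The distal against proximal counts were 139 higher with no filter on low counts, 124 lower with DESeq2's Wald test, 24 and 9 in the fit of the compared groups, and 48 and 27 in that fit with a replicate block, an alternative added after seeing the data. Against GFP-high, the fit of the compared groups called 3814 lower, and 4186 with the block. In the main fit the replicate block gave 6990 higher and 7095 lower genes over the small intestine and changed no other call or count by over 1.5 times.

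Leaving out 1 replicate number or 1 library gave 6327 to 7039 higher and 6366 to 7370 lower genes over the small intestine, 3607 to 4690 higher and 4028 to 5219 lower genes in the proximal part, 3835 to 4731 higher and 3917 to 5138 lower genes in the middle part, 4583 to 5396 higher and 4239 to 5169 lower genes in the distal part, 66 to 253 higher and 31 to 78 lower genes between distal and proximal, 2716 to 3939 higher and 2430 to 3364 lower genes between small intestine and colon, and 1653 to 3376 higher and 1074 to 2598 lower genes against GFP-high. The lowest counts came without replicate 1 for genes higher distally and without replicate 2 against GFP-high. The Cdh1 difference, not called, ran between -0.070 and 0.020 with 1 replicate number left out, and that of Tmprss15 between -1.67 and 0.18, with 0.15 without middle GFP-negative library 4. Of 5834 named-gene values under an alternative, 5807 kept direction and call; calls lost with a replicate number left out were those of Tas1r3, Smoc2, Clca4b, Dhrs1, Bex1, Trpm5, Nrgn, Snrpd2 and Rps28. DESeq2 gave no adjusted p for Olfm4. Of 2030 list counts, 1982 stayed within 1.5 times. With a replicate number left out, the lower genes were 16 of oxidative phosphorylation (number 1), 10 of cholesterol synthesis (number 3), 9 of mucosal defence (number 2) and 3 of the Notch list (numbers 1 and 3, and without proximal GFP-negative library 1); the other counts that moved more were of 3 or fewer genes as reported. The cause of these changes was not tested. All p-values rest on 4 libraries a group, and depth limits the values of genes near 0 in GFP-intermediate cells.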
